A study of Mus musculus with 8 samples.

Results

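RNA levels of 45 genes that carry out the ATF4 amino acid response were described in natural killer (NK) cells sorted from a tumour and from spleen. The genes were taken by name from the 45706 genes of the deposited tables, and comprise transcription factors and their stress effectors, enzymes that make serine, glycine, asparagine and proline, amino acid transporters, and cytosolic tRNA synthetases. The samples are titled tuNK (4 libraries) and spNK (4 libraries), abbreviations that the series title spells out as NK cells from the tumour and from the spleen. Both come from BALB/c mice inoculated under the skin with CT26_β2m-/- cells, a mouse colorectal carcinoma line that lacks β2-microglobulin, so mice of both groups carried the tumour. In all 8 samples the tags for tissue and source give the opposite tissue to the title, with tuNK tagged as spleen and spNK as tumour. Groups and directions here follow the titles, and the tags would turn every direction round. The labels give no age, no sort markers and no statement that the 4 libraries of a group came from separate mice, so p-values here speak only of the spread among libraries, which may be technical.

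ATF4 is a transcription factor whose protein is made when a stress kinase phosphorylates the initiation factor eIF2α, which happens when amino acids run short, when proteins misfold in the endoplasmic reticulum, when heme is lacking or when a virus is sensed. With C/EBP partners it binds a composite DNA element and switches on genes that import amino acids, synthesise them and load them onto tRNA. Activated NK cells are known to raise amino acid uptake through the transporter CD98 (Slc3a2 with Slc7a5). RNA was measured here and protein was not.

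The composite element is written TGATGNAA, or TTNCATCA when it lies on the other strand. RefSeq promoter sequences (GRCm38.p6, 250 bases before to 50 bases after the start of transcription) were matched for 35 of the 45 genes, and 13 of these (37.1%) held the letters on either strand. Counted by gene in the same way, the share was 4.51% among all genes with a promoter and 2.78% among the tested genes with a promoter. Counted by promoter, since some genes have several, it was 31.7% of the 41 promoters of these genes and 3.97% of all RefSeq promoters of that length. By role, the letters were found for 5 of 7 synthetase genes, 3 of 5 stress effector genes, 2 of 4 genes of other amino acid enzymes, 2 of 6 transporter genes, 1 of 6 transcription factor genes and 0 of 7 genes of serine, glycine and one-carbon enzymes. The matches are shown because they are the sequence that the gene set is known for, written 5′ to 3′ on the gene's strand with the matched letters in capitals.
Nupr1, chr7:126625562-126625591, - strand: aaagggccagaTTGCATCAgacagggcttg
Trib3, chr2:152344028-152344057, - strand: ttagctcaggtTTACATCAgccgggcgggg
Chac1, chr2:119351038-119351067, + strand: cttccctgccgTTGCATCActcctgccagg
Vldlr, chr19:27216809-27216838, + strand: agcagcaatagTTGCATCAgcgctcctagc
Asns, chr6:7693214-7693243, - strand: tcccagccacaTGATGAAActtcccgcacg
Pycr1, chr11:120643833-120643862, - strand: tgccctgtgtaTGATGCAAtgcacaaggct
Slc7a11, chr3:50443642-50443690, - strand: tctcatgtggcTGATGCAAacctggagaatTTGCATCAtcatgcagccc
Slc1a4, chr11:20332699-20332728, - strand: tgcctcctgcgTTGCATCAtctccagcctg
Aars, chr8:111033840-111033869, + strand: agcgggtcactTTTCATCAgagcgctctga
Gars, chr6:55037960-55037989, + strand: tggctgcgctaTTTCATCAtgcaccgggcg
Iars, chr13:49682126-49682155, + strand: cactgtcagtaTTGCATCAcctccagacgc
Tars, chr15:11399655-11399684, - strand: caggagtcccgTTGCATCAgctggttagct
Yars, chr4:129189895-129189924, + strand: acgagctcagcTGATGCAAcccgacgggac
The Slc7a11 promoter held the letters on both strands, 66 to 59 and 47 to 40 bases before the start. The matches shown for Trib3, Iars, Yars and Aars lay after the start, and the match in Slc1a4 spanned it. Those of Asns, Gars and Aars read TGATGAAA, that of Trib3 read TGATGTAA and the others shown read TGATGCAA. Not every match in these promoters is printed. A match is a description of the letters and not of binding. Slc38a1, Slc1a5, Slc7a5, Slc7a3, Eif4ebp1, Cth, Nars, Wars, Lars and Mars were not matched.

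Library totals ran from 38745733 to 45404059 estimated counts in tuNK and from 40560781 to 53886933 in spNK. The edgeR test called 69.6% of the 14006 genes tested, 35.6% higher and 34.0% lower in tuNK. Defining NK genes were present in both groups but lower in tuNK: Ncr1 averaged 228 TPM in tuNK and 1278 TPM in spNK, and all 12 NK markers fell. Of 32 genes expressed across leukocytes 31 fell (median log2 fold change -1.67), and their summed level was 3454 to 4586 TPM in tuNK and 12287 to 15837 TPM in spNK. Mesenchymal markers moved the other way, with 17 of 17 tested members higher and sums of 726 to 1269 TPM in tuNK and 3.93 to 14.8 TPM in spNK. Fewer leukocytes and less RNA per leukocyte cannot be told apart in such bulk libraries. Calls were also made with libraries scaled to the 32 leukocyte genes. This scaling does not separate these possibilities, and it raises transcripts of any other cells in tuNK along with the rest. It moves the median log2 fold change of all tested genes by 1.81. The split of 4983 higher and 4761 lower genes turns into 11099 higher and 778 lower. Epithelial tumour markers summed to 31.4 to 42.0 TPM in tuNK and 1.13 to 5.03 TPM in spNK, with Krt18 at 24.0 TPM in tuNK and 1.501 TPM in spNK. Of the 6 tested, 4 were called higher and 0 lower. Among these were Krt20 (5.14 TPM in tuNK, 0 in spNK) and Cdh17 (3.39 TPM in tuNK, 0.0777 TPM in spNK), whereas Cdh1 and Epcam were not called. Vil1 was at 0 in all tuNK libraries and averaged 0.0157 TPM in spNK. Macrophage and monocyte markers summed to 43.0 to 60.2 TPM in tuNK and 45.1 to 268 TPM in spNK, highest in spNK 3, and in tuNK they were mostly Cd14 (41.3 TPM) while Csf1r stood at 0.0222 TPM. Markers of other blood cells summed lower in every tuNK library than in any spNK library. The sum of neutrophil markers was 0.210 to 1.93 TPM in tuNK and 54.3 to 222 TPM in spNK. The sum of B cell markers was 2.31 to 3.30 TPM in tuNK and 10.4 to 32.5 TPM in spNK. The sum of plasma cell markers was 61.0 to 72.5 TPM in tuNK and 183 to 964 TPM in spNK. Markers at 0 in every tuNK library included Ms4a1 and Fcrla of B cells, Cd3e and Cd8b1 of T cells, Ly6g, Camp, Ngp, Elane and Mpo of neutrophils, Alas2 and Slc4a1 of red cells, Mzb1 of plasma cells and Gp6 of platelets. Of these, Ly6g was at 0 in every spNK library as well, and Cd3e and Cd8b1 averaged 0.329 and 0.0760 TPM in spNK. Of the B cell markers tested, 5 were lower and 1 higher, Blnk (2.01 TPM in tuNK, 0.579 TPM in spNK). Of the plasma cell markers 3 were lower and 1 higher, Sdc1 (14.6 TPM in tuNK, 1.98 TPM in spNK). Xbp1 (48.1 TPM) made most of the plasma cell sum in tuNK, and Cd3g (17.6 TPM) most of the T cell sum. The sum of T cell markers was 15.1 to 27.4 TPM in tuNK and 46.4 to 56.8 TPM in spNK. The sum of erythroid markers was 1.10 to 4.49 TPM in tuNK and 337 to 1506 TPM in spNK. The sum of platelet markers was 4.29 to 5.47 TPM in tuNK and 405 to 712 TPM in spNK. What share of the 45 genes' RNA came from which of these cells was not tested.

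The comparison of tuNK with spNK asks what distinguishes the transcripts of intratumoral and splenic NK cells. Of the 45 genes 43 passed the filter on low counts, and Cth and Slc7a3 did not. Of these 43, 42 were called higher in tuNK, where 35.6% of all tested genes were, and 1, Slc38a1, was called lower, where 34.0% were. The median log2 fold change was 1.95 over the 43 and 0.019 over all tested genes. A call with a fold of at least 2 was made for 35 of the 43 (21.9% of all tested genes) and a fold of at least 8 for 17 (9.83%). Scaled to leukocyte genes, all 43 were called higher, where 79.2% of all tested genes were, and 0 lower, where 5.55% were, with a median of 3.79 against 1.83 over all tested genes. The TPM values of the groups did not overlap for 37 members with tuNK above (26.2% of all tested genes) and for 1 with tuNK below (36.0%). Together the 45 genes held 5240.4, 4354, 5181 and 4083 of each 1000000 TPM in tuNK 1 to 4, against 1231, 1192, 1348 and 1288 in spNK 1 to 4, which is 3.73-fold higher by the group means. Mesenchymal markers, with a median log2 fold change of 5.86, were higher in the same libraries. Which cells made these markers, tumour cells or others, was not tested, nor was the part of those cells in these counts. Without tuNK 1, which held the most mesenchymal marker RNA, and spNK 3, which held the most mesenchymal, epithelial, macrophage, B cell, plasma cell and erythroid marker RNA of the spNK libraries, 41 were called higher (35.2% of all genes tested there) and 1 lower (33.3%). Tested against a fold of 1.5 in place of 1, 36 of the 43 were called higher, where 23.9% of all tested genes were.

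**Figure D1:**
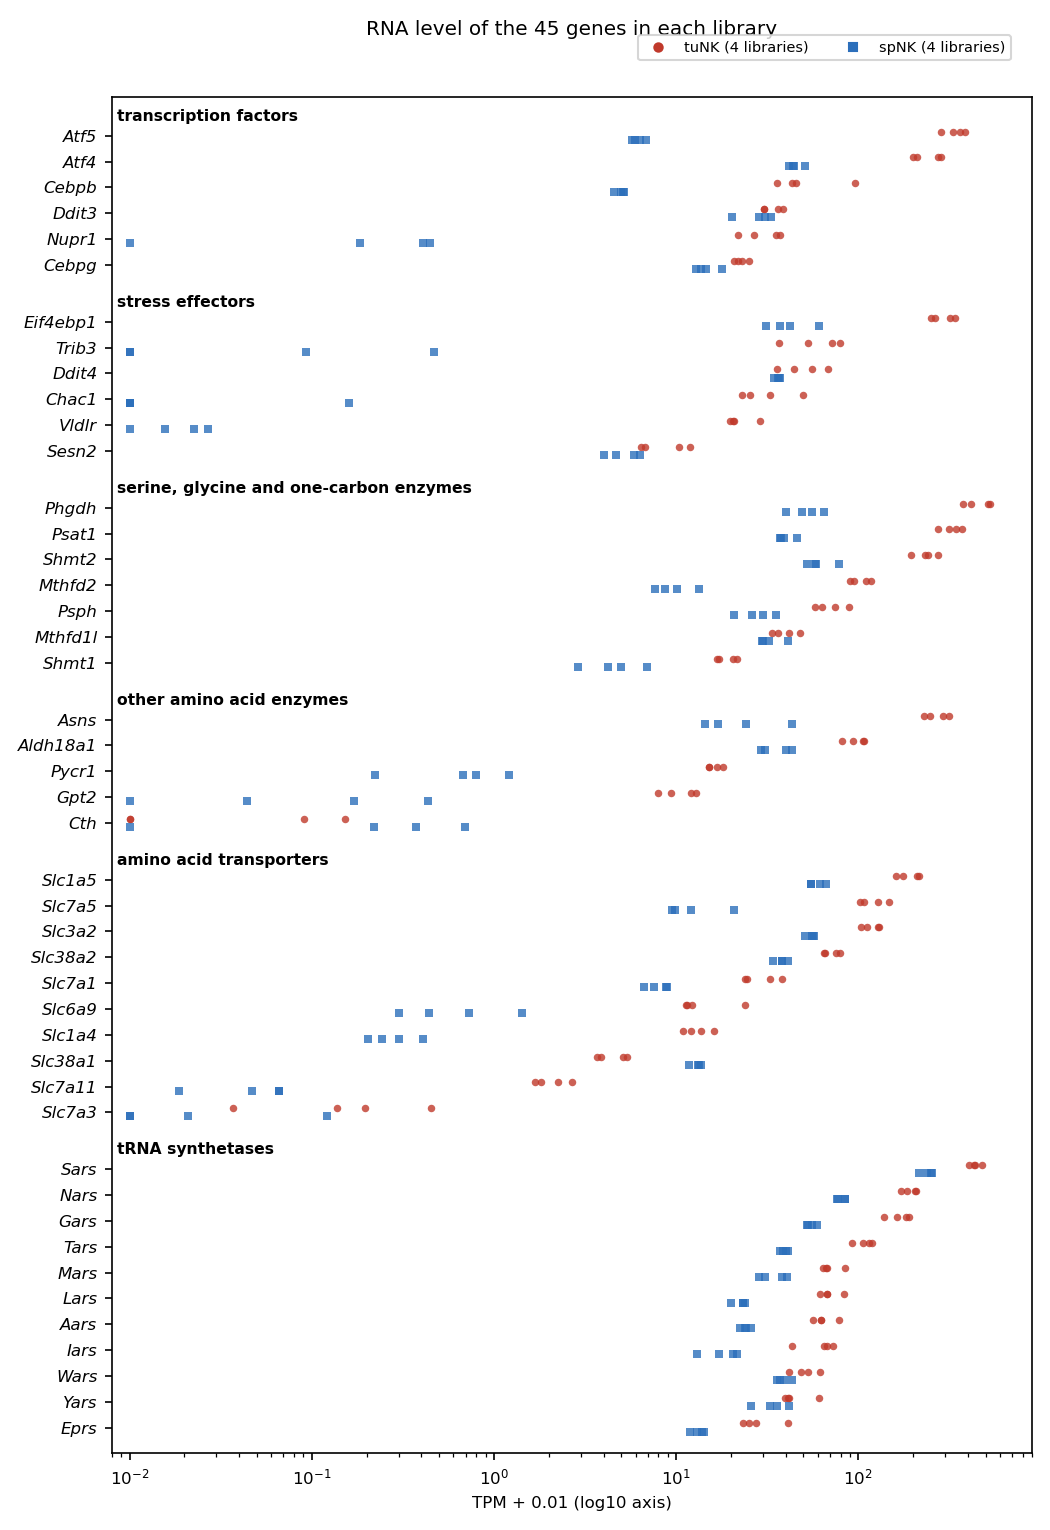
RNA level of each of the 45 genes in TPM plus 0.01 on a log10 axis, with the 4 tuNK libraries as red circles and the 4 spNK libraries as blue squares, grouped by role; points at the left end are libraries at 0 TPM. Trib3, Chac1 and Vldlr lie near 0 in spNK and above 19 TPM in every tuNK library, whereas Slc38a1 has lower TPM in tuNK (relative to leukocyte genes it is above spNK, by 0.51 on the log2 scale).

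The 6 transcription factor genes were all called higher in tuNK (35.6% of all tested genes). The median of their log2 fold changes was 3.18. Atf4 (ENSMUSG00000042406, chromosome 15, 80255184 to 80257541 on GRCm38) stood at 285, 209.8, 274 and 201 TPM in tuNK 1 to 4, against 44.2, 41.6, 43.6 and 50.7 TPM in spNK 1 to 4. Every tuNK library lay above every spNK library, and the log2 fold change was 2.67 ± 0.12 (SE; adjusted p = 2.92e-08), 4.52 when scaled to leukocyte genes. Atf5 (ENSMUSG00000038539, chromosome 7, 44812256 to 44816658), a related factor that is also translated under stress, stood at 362, 286, 386 and 330.1 TPM in tuNK 1 to 4, against 6.80, 5.75, 5.95 and 6.33 TPM in spNK 1 to 4. This was a change of 6.07 ± 0.14 (SE; adjusted p = 5.24e-10), 67.1-fold, so that Atf5 ranked 3 of the 45 genes by mean TPM in tuNK and 31 in spNK. Ddit3 encodes CHOP, a factor that promotes cell death in prolonged stress, and stood at 38.8, 30.5, 36.3 and 30.4 TPM in tuNK 1 to 4, against 33.4, 30.7, 20.2 and 28.6 TPM in spNK 1 to 4. These groups overlapped, with tuNK 2 and tuNK 4 below spNK 1 and spNK 2, and the log2 fold change of 0.49 ± 0.16 (SE; adjusted p = 0.0187) was lost without tuNK 3 (0.38, adjusted p = 0.066). The Ddit3 gene overlaps Mars by 68 bases on the opposite strand, and whether strand was used in counting is not given in the sources used here.

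Nupr1, a small stress-induced nuclear protein, stood at 35.2, 21.9, 37.1 and 26.7 TPM in tuNK 1 to 4, against 0.436, 0, 0.175 and 0.399 TPM in spNK 1 to 4. With 16 counts in all of spNK, the ratio of summed CPM was 213 (exact 95% interval 131 to 373), an interval that covers counting error only. Cebpb, a C/EBP factor that pairs with ATF4 and is also abundant in myeloid cells, stood at 95.9, 45.5, 35.6 and 43.4 TPM in tuNK 1 to 4, against 4.54, 5.11, 4.96 and 5.15 TPM in spNK 1 to 4. The tuNK values all lay above those of spNK, tuNK 1 far above the other tuNK libraries, and the log2 fold change was 3.68 ± 0.25 (SE; adjusted p = 6.63e-07). Cebpg, another partner of ATF4, changed little by comparison and stood at 25.2, 20.7, 23.1 and 21.9 TPM in tuNK 1 to 4, against 14.7, 12.9, 13.7 and 17.97 TPM in spNK 1 to 4. Its groups did not overlap, and its log2 fold change was 0.64 ± 0.11 (SE; adjusted p = 0.000305).

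The 6 stress effector genes were all called higher (35.6% of all tested genes), with a median of 5.99. Of these, 3 were close to absent in spNK. Trib3 (ENSMUSG00000032715, chromosome 2, 152337422 to 152344032), a pseudokinase that holds back ATF4 activity, stood at 71.8, 36.7, 79.6 and 52.8 TPM in tuNK 1 to 4, against 0, 0, 0.462 and 0.0832 TPM in spNK 1 to 4. Of its 44 spNK counts 38 were in spNK 3, so the log2 fold change of 8.96 ± 0.78 (SE; adjusted p = 1.48e-05) was 11.32 without that library. Chac1 (ENSMUSG00000027313, chromosome 2, 119351229 to 119354381), an enzyme that degrades glutathione, stood at 50.03, 25.4, 33.0 and 23.0 TPM in tuNK 1 to 4, against 0, 0.149, 0 and 0 TPM in spNK 1 to 4. Its 11 spNK counts were all in spNK 2, giving a ratio of summed CPM of 768 (exact 95% interval 429 to 1539), and without spNK 2 the level in tuNK was at least 668-fold higher than a floor of 3 counts per library. Vldlr, a lipoprotein receptor, stood at 28.7, 19.7, 20.7 and 20.7 TPM in tuNK 1 to 4, against 0.0168, 0.0125, 0.00570 and 0 TPM in spNK 1 to 4. With 12 counts in all of spNK the ratio was 1227 (exact 95% interval 702 to 2375). The promoters of these 3 genes each held the composite element letters shown above.

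Eif4ebp1, whose product 4E-BP1 restrains cap-dependent translation, was far more abundant than these and stood at 321, 264, 342 and 252 TPM in tuNK 1 to 4, against 31.2, 37.0, 60.8 and 42.3 TPM in spNK 1 to 4. Its log2 fold change was 3.03 ± 0.22 (SE; adjusted p = 1.11e-06), with no overlap between groups. The smallest changes in this role were those of inhibitors of the growth kinase mTORC1. Ddit4, which encodes REDD1, stood at 67.9, 44.1, 35.7 and 55.9 TPM in tuNK 1 to 4, against 36.9, 37.1, 34.5 and 36.5 TPM in spNK 1 to 4. Its groups overlapped through tuNK 3, and its log2 fold change was 0.72 ± 0.14 (SE; adjusted p = 0.000833). Sesn2, a leucine-sensing protein, stood at 11.9, 6.73, 10.3 and 6.45 TPM in tuNK 1 to 4, against 4.01, 4.68, 5.87 and 6.35 TPM in spNK 1 to 4. The lowest tuNK value lay only just above the highest spNK value, and the log2 fold change was 0.99 ± 0.21 (SE; adjusted p = 0.00151).

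Genes of serine synthesis and of the one-carbon cycle that it feeds formed a large part of the RNA. All 7 were called higher (35.6% of all tested genes), with a median of 2.25. Their summed level was 1255 ± 167 TPM in tuNK and 231 ± 34.5 TPM in spNK (SD, n = 4 each). Phgdh (ENSMUSG00000053398, chromosome 3, 98313170 to 98339990), which catalyses the first step from the glycolytic intermediate 3-phosphoglycerate, stood at 529, 416, 517 and 376 TPM in tuNK 1 to 4, against 40.2, 49.0, 65.1 and 56.0 TPM in spNK 1 to 4. It ranked first of the 45 genes by mean TPM in tuNK, although its values overlapped those of Sars, the second, and it rose by 3.37 ± 0.17 (SE; adjusted p = 6.78e-08) on the log2 scale. Psat1, the transaminase of the second step, stood at 344, 314, 373 and 275 TPM in tuNK 1 to 4, against 37.7, 37.4, 46.2 and 39.3 TPM in spNK 1 to 4. It rose by 3.28 ± 0.13 (SE; adjusted p = 1.54e-08), close to Phgdh. Psph, the phosphatase of the last step, stood at 74.5, 63.5, 89.4 and 58.2 TPM in tuNK 1 to 4, against 29.8, 20.8, 26.2 and 35.5 TPM in spNK 1 to 4. Its rise of 1.65 ± 0.13 (SE; adjusted p = 1e-06) was the smallest of the 3 steps, with the groups still apart. Psph overlaps Cct6a by 452 bases on the opposite strand, a gene at 408 TPM in tuNK and 177 TPM in spNK with a log2 fold change of 1.52.

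The folate enzymes that move one-carbon units differed in size of change. Mthfd2, the mitochondrial dehydrogenase and cyclohydrolase, stood at 117, 94.97, 109.8 and 90.1 TPM in tuNK 1 to 4, against 8.65, 7.70, 13.4 and 10.15 TPM in spNK 1 to 4. Its log2 fold change was 3.61 ± 0.18 (SE; adjusted p = 5.72e-08), 12.2-fold. Shmt2, the mitochondrial enzyme that splits serine into glycine and a one-carbon unit, stood at 234, 241, 273 and 196 TPM in tuNK 1 to 4, against 52.4, 58.6, 78.4 and 57.7 TPM in spNK 1 to 4. Shmt1, its cytosolic counterpart, was lower in every library and stood at 20.5, 17.2, 16.7 and 21.6 TPM in tuNK 1 to 4, against 4.20, 2.90, 6.95 and 4.95 TPM in spNK 1 to 4. The log2 fold changes of Shmt2, 2.18 ± 0.16 (SE; adjusted p = 7.68e-07), and Shmt1, 2.25 ± 0.22 (SE; adjusted p = 6.37e-06), were close to each other. Mthfd1l, which releases formate from mitochondria, averaged 39.9 ± 6.22 TPM in tuNK and 33.2 ± 5.34 TPM in spNK (SD, n = 4 each), with overlapping groups. Its log2 fold change of 0.50 ± 0.12 (SE; adjusted p = 0.00354) was not called on log2 TPM.

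Of the 5 genes of other amino acid enzymes, 4 were tested and called higher (35.6% of all tested genes). Asns (ENSMUSG00000029752, chromosome 6, 7675169 to 7693254), which makes asparagine, stood at 291, 248.7, 314 and 229 TPM in tuNK 1 to 4, against 17.1, 14.4, 43.4 and 24.2 TPM in spNK 1 to 4. The spNK libraries spread 3-fold with spNK 3 highest, all were below tuNK, and the log2 fold change was 3.69 ± 0.36 (SE; adjusted p = 2.44e-05). Aldh18a1, the enzyme that commits glutamate to proline, stood at 107, 93.3, 106 and 81.7 TPM in tuNK 1 to 4, against 31.0, 29.3, 43.3 and 40.0 TPM in spNK 1 to 4. It rose by 1.61 ± 0.12 (SE; adjusted p = 6.64e-07). Pycr1, a mitochondrial enzyme of the last step to proline, stood at 18.1, 15.2, 16.7 and 15.1 TPM in tuNK 1 to 4, against 0.664, 0.788, 1.21 and 0.213 TPM in spNK 1 to 4. Although low in both groups beside Aldh18a1, it rose further, by 4.68 ± 0.35 (SE; adjusted p = 9.7e-07). Gpt2, the mitochondrial alanine aminotransferase, stood at 12.9, 9.42, 12.1 and 7.96 TPM in tuNK 1 to 4, against 0.1599, 0.0340, 0 and 0.426 TPM in spNK 1 to 4. Its rise of 6.32 ± 0.80 (SE; adjusted p = 0.00013) was 7.60 without spNK 4. Cth, which makes cysteine from cystathionine, was listed at 0, 0.0807, 0 and 0.143 TPM in tuNK 1 to 4 and at 0, 0.363, 0.688 and 0.209 TPM in spNK 1 to 4, too few counts for the test.

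Amino acid transporters included the one gene of the 43 tested that was called lower. Of 9 tested, 8 were higher (35.6% of all tested genes) and 1 lower (34.0%), with a median of 2.15. Slc7a5 (ENSMUSG00000040010, chromosome 8, 121881150 to 121907694), the LAT1 light chain that brings in leucine and other large neutral amino acids, stood at 129, 108, 148 and 102 TPM in tuNK 1 to 4, against 9.82, 9.49, 20.8 and 12.1 TPM in spNK 1 to 4. Slc3a2, the CD98 heavy chain that LAT1 and other light chains need at the surface, stood at 129, 112, 128 and 104 TPM in tuNK 1 to 4, against 51.3, 57.0, 56.6 and 56.1 TPM in spNK 1 to 4. Slc7a5 rose by 3.47 ± 0.29 (SE; adjusted p = 5.43e-06) and Slc3a2 by 1.34 ± 0.093 (SE; adjusted p = 4.73e-07), both with groups apart. Slc7a11, the cystine light chain that also pairs with Slc3a2, stayed low in both groups, at 1.68 to 2.69 TPM in tuNK and 0.00868 to 0.0562 TPM in spNK, with a log2 fold change of 5.85 ± 0.45 (SE; adjusted p = 1.34e-06). The annotated Slc7a5 gene lies within Gm20388 on the opposite strand, a gene at 6.69 TPM in tuNK and 4.80 TPM in spNK.

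Slc1a5, the ASCT2 transporter of glutamine and other neutral amino acids, stood at 212, 176, 216 and 162 TPM in tuNK 1 to 4, against 66.2, 55.2, 61.5 and 55.3 TPM in spNK 1 to 4. Slc1a4, the related ASCT1, stood at 13.6, 10.9, 16.1 and 12.0 TPM in tuNK 1 to 4, against 0.292, 0.234, 0.193 and 0.399 TPM in spNK 1 to 4. The log2 fold changes were 1.95 ± 0.11 (SE; adjusted p = 8.78e-08) for Slc1a5 and 5.83 ± 0.24 (SE; adjusted p = 1.65e-08) for Slc1a4, the gene of lower level having the larger change. Slc7a1, which carries arginine and lysine, stood at 38.3, 23.8, 32.6 and 24.5 TPM in tuNK 1 to 4, against 8.80, 7.59, 8.88 and 6.66 TPM in spNK 1 to 4. It rose by 2.15 ± 0.15 (SE; adjusted p = 4.46e-07). Slc6a9, the glycine transporter GLYT1, ran from 11.4 to 23.9 TPM in tuNK and from 0.291 to 1.42 TPM in spNK, and its log2 fold change of 4.81 ± 0.70 (SE; adjusted p = 0.000326) was 5.98 without spNK 3. It overlaps B4galt2 on the opposite strand by 5939 bases, a gene that also rose (17.7 TPM in tuNK, 0.0695 TPM in spNK). Slc7a3, a second cationic transporter, was below 1 TPM in all 8 libraries.

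Slc38a2 and Slc38a1 encode sodium-coupled carriers of small neutral amino acids. Slc38a2 (ENSMUSG00000022462, chromosome 15, 96687392 to 96699730), the member of this pair that amino acid shortage is known to induce, stood at 79.3, 65.3, 75.7 and 66.0 TPM in tuNK 1 to 4, against 37.9, 38.1, 34.0 and 41.2 TPM in spNK 1 to 4. It rose by 1.17 ± 0.09 (SE; adjusted p = 1e-06). Slc38a1 (ENSMUSG00000023169, chromosome 15, 96571418 to 96642913) stood at 3.68, 5.12, 3.87 and 5.38 TPM in tuNK 1 to 4, against 13.7, 11.7, 13.4 and 13.2 TPM in spNK 1 to 4. All tuNK libraries lay below all spNK libraries and Slc38a1 fell by 1.27 ± 0.16 on the log2 scale (SE; adjusted p = 3.22e-05). This direction depends on the scaling, since relative to the leukocyte genes it was higher by 0.51, less than the 1.83 of the median gene on that scale.

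**Figure D2:**
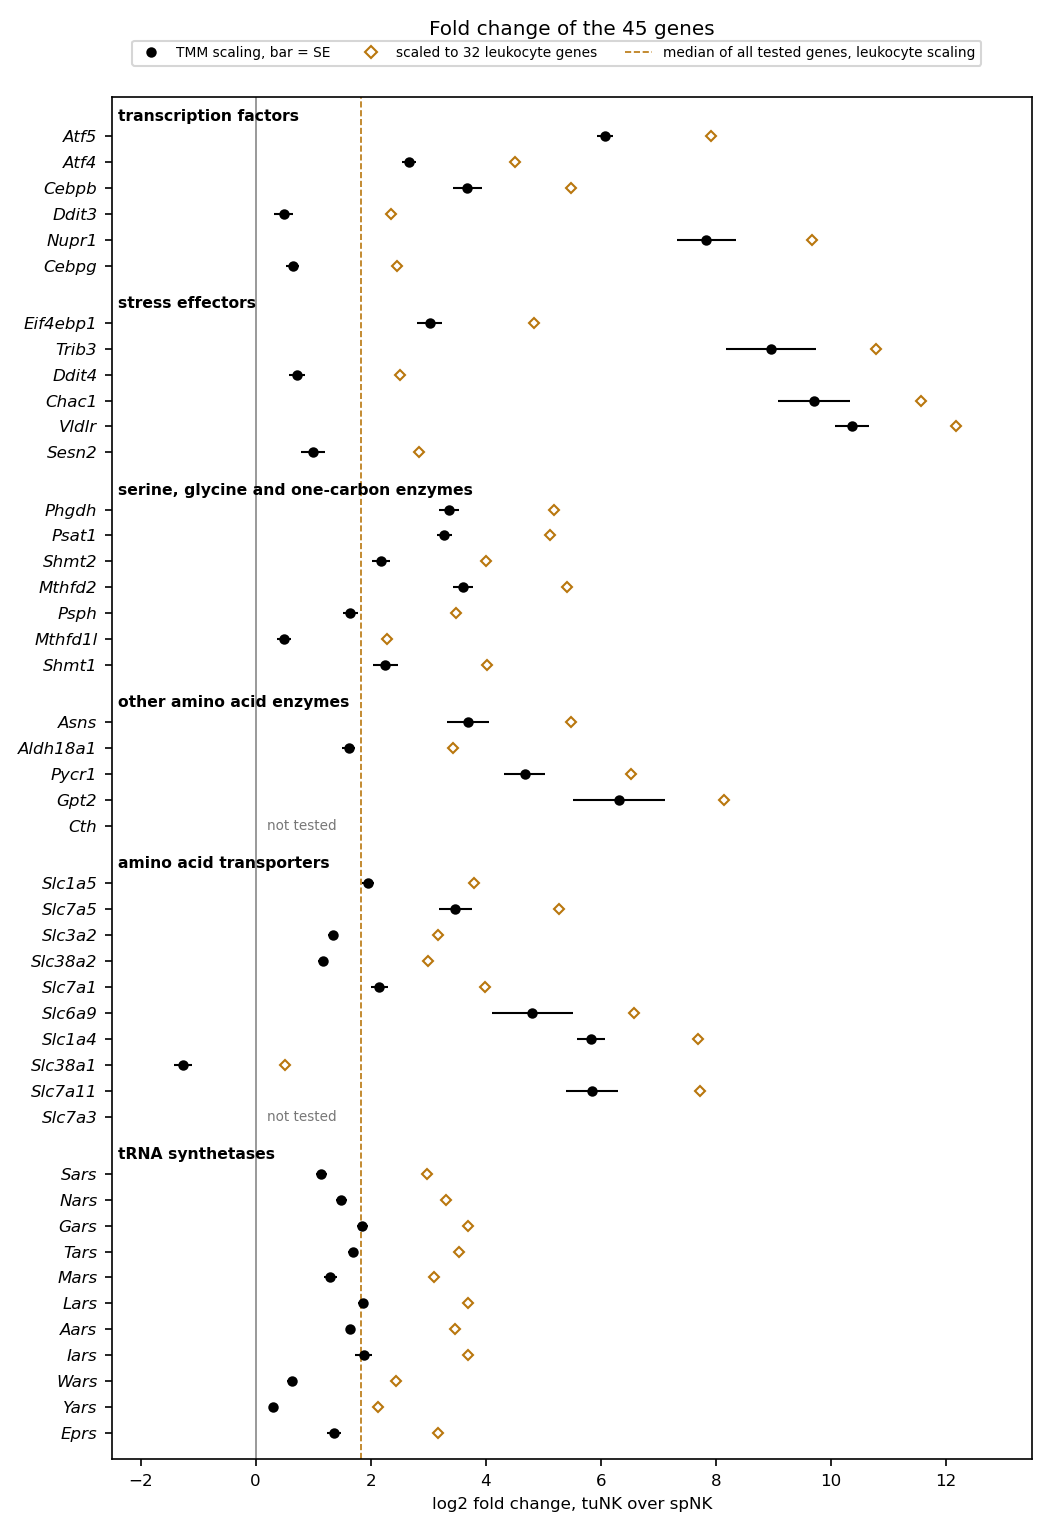
Log2 fold change of tuNK over spNK for each of the 45 genes by role, with TMM scaling as black circles with SE bars and scaling to 32 leukocyte genes as open diamonds; the dashed line is the median of all tested genes on the second scale. Of the 43 tested genes 42 lie above 0 on the first scale, and Slc38a1 is the gene that lies below; on the second scale all 43 lie above 0.

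The 11 tRNA synthetase genes, whose products join each amino acid to its tRNA, were all called higher (35.6% of all tested genes). Their log2 fold changes ran from 0.30 to 1.88 with a median of 1.49, and their summed level was 1302 ± 123 TPM in tuNK and 601 ± 12.8 TPM in spNK (SD, n = 4 each). Iars (isoleucine) stood at 72.7, 65.2, 67.5 and 43.4 TPM in tuNK 1 to 4, against 17.3, 12.9, 20.5 and 21.6 TPM in spNK 1 to 4. Lars (leucine) stood at 83.4, 67.8, 67.8 and 61.9 TPM in tuNK 1 to 4, against 24.0, 23.4, 23.4 and 20.0 TPM in spNK 1 to 4. Gars (glycine) stood at 189.8, 163, 183 and 138 TPM in tuNK 1 to 4, against 52.9, 52.0, 59.6 and 55.6 TPM in spNK 1 to 4. The groups were apart for these 3, with log2 fold changes of 1.88 ± 0.14 (SE; adjusted p = 8.35e-07) for Iars, 1.87 ± 0.087 (SE; adjusted p = 3.31e-08) for Lars and 1.86 ± 0.10 (SE; adjusted p = 1.05e-07) for Gars. Tars (threonine) stood at 119, 107, 114 and 92.3 TPM in tuNK 1 to 4, against 41.4, 40.1, 38.8 and 37.3 TPM in spNK 1 to 4. Aars (alanine) stood at 78.0, 62.6, 62.4 and 56.8 TPM in tuNK 1 to 4, against 22.4, 24.1, 25.8 and 24.2 TPM in spNK 1 to 4. Nars (asparagine) stood at 204, 186, 207 and 171 TPM in tuNK 1 to 4, against 77.9, 76.2, 84.6 and 85.2 TPM in spNK 1 to 4. Their log2 fold changes were 1.70 ± 0.087 (SE; adjusted p = 6.03e-08) for Tars, 1.65 ± 0.085 (SE; adjusted p = 6.06e-08) for Aars and 1.49 ± 0.093 (SE; adjusted p = 2.25e-07) for Nars, again with no overlap between groups.

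Sars (serine) had the highest level of the 11 in both groups and averaged 439 ± 31.6 TPM in tuNK and 240.1 ± 17.0 TPM in spNK (SD, n = 4 each), a log2 fold change of 1.14 ± 0.095 (SE; adjusted p = 1.7e-06). Eprs, one protein that charges both glutamate and proline tRNA, averaged 29.3 ± 8.19 TPM in tuNK and 13.3 ± 1.04 TPM in spNK (SD, n = 4 each), a change of 1.36 ± 0.13 (SE; adjusted p = 3.49e-06). Mars (methionine) averaged 70.8 ± 9.39 TPM in tuNK and 34.5 ± 5.83 TPM in spNK (SD, n = 4 each), a change of 1.30 ± 0.12 (SE; adjusted p = 3.12e-06). The smallest changes were those of Wars (tryptophan), which is also induced by interferon gamma, at 0.63 ± 0.087 (SE; adjusted p = 7.22e-05), and of Yars (tyrosine) at 0.30 ± 0.077 (SE; adjusted p = 0.00473), and for both the TPM values of the groups overlapped. The Yars call was lost when libraries were scaled by size alone (0.13, adjusted p = 0.16). The Yars promoter held the composite element letters, as did those of Iars, Gars, Tars and Aars.

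Synthetases outside the 45 genes were set beside them, followed by the other genes of the pathway. Directions of these genes depend on the scaling: of the 81 distinct genes tested among 86 in 8 lists, 45 were higher (35.6% of all tested genes) and 20 lower (34.0%). Scaled to leukocyte genes 72 were higher (79.2% of all tested genes) and 3, Slc43a1, Slc43a2 and Slc7a8, were lower (5.55%). Of 9 other cytosolic synthetase genes 8 were higher and 0 lower, with a median of 0.88. Cars (cysteine) rose by 2.69 ± 0.17 (SE; adjusted p = 2.37e-07), more than any of the 11, and averaged 34.9 ± 5.17 TPM in tuNK and 6.44 ± 1.57 TPM in spNK (SD, n = 4 each). Kars (lysine) rose by 1.07 ± 0.085 (SE; adjusted p = 1.27e-06) and Rars (arginine) by 1.19 ± 0.10 (SE; adjusted p = 2.06e-06), while Qars (glutamine), named after its value was seen, was not called (0.19 ± 0.089, adjusted p = 0.0833). Of 17 mitochondrial synthetase genes 9 were higher and 4 lower, with a median of 0.46. Tars2 rose by 1.46 ± 0.15 (SE; adjusted p = 7.28e-06) and Iars2 by 0.78 ± 0.095 (SE; adjusted p = 2.92e-05), whereas Pars2 fell by 1.54 ± 0.20 on the log2 scale (SE; adjusted p = 5.39e-05) and Fars2, Hars2 and Mars2 were also called lower (-0.55, -0.31 and -0.79). The 3 scaffold genes of the multi-synthetase complex were higher, Aimp1 by 1.30, Aimp2 by 1.42 and Eef1e1 by 0.96 on the log2 scale (adjusted p = 1.25e-06, 1.73e-06 and 3.41e-05). No test of the difference between these lists was made.

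**Figure D3:**
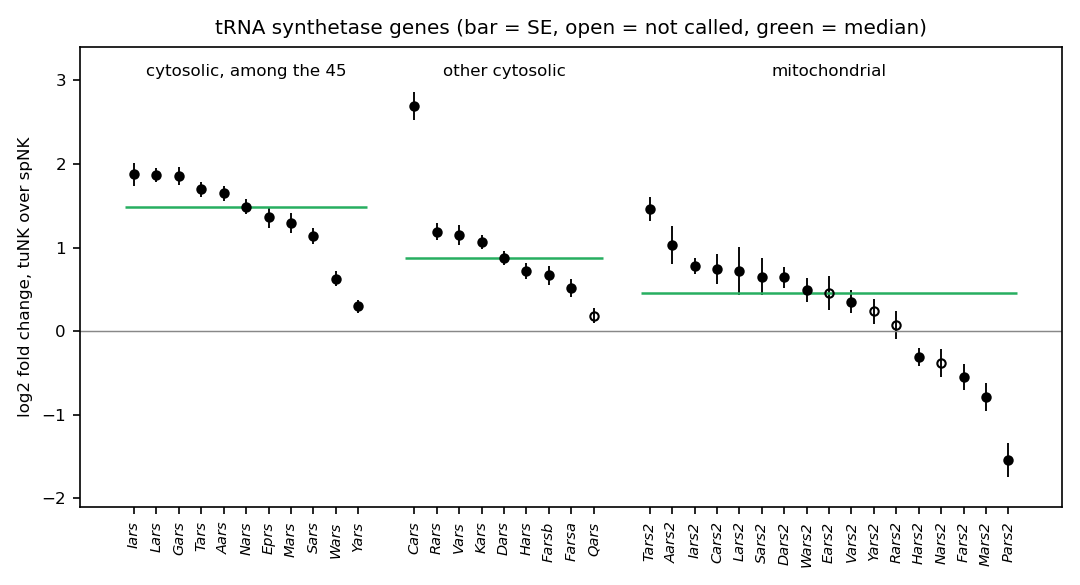
Log2 fold change of tuNK over spNK, with SE bars, for the 11 cytosolic synthetase genes among the 45, 9 other cytosolic synthetase genes and 17 mitochondrial synthetase genes; open circles were not called and green lines are medians. The medians are 1.49, 0.88 and 0.46, and every gene below 0 on this TMM scale is mitochondrial.

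A list of 8 tested genes held those of eIF2α, its kinases and its phosphatase subunits, and Gcn1l1. Of these, 3 were higher and 3 lower, shares near those of all tested genes, with a median of 0.16. Scaled to leukocyte genes all 8 were higher, where 79.2% of all tested genes were. Eif2s1, which encodes eIF2α itself, rose by 0.98 ± 0.11 (SE; adjusted p = 2.08e-05). The heme-sensing kinase gene Eif2ak1 fell by 0.57 ± 0.092 on the log2 scale (SE; adjusted p = 0.000224), and Ppp1r15b, the constitutive phosphatase subunit, fell by 0.82 ± 0.13 on the log2 scale (SE; adjusted p = 0.000265). The other genes called were named after their values were seen. Eif2ak2 (1.18 ± 0.24, adjusted p = 0.00105) and Ppp1r15a (1.14 ± 0.27, adjusted p = 0.00362) were higher, and Eif2ak3 (-0.56 ± 0.20, adjusted p = 0.0283) was lower. For each of these the TPM values of the groups overlapped. Eif2ak4, which encodes the amino acid sensor GCN2 and was named after its value was seen, averaged 1.58 ± 0.463 TPM in tuNK and 1.91 ± 0.185 TPM in spNK (SD, n = 4 each) and was not called (0.11 ± 0.23, adjusted p = 0.696).

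Of 12 further ATF4 targets 11 were tested, with 8 higher (35.6% of all tested genes), 2 lower (34.0%) and a median of 1.14. Scaled to leukocyte genes 10 were higher (79.2% of all tested genes) and 0 lower (5.55%). Aldh1l2, a mitochondrial folate enzyme that the one-carbon list also holds, had 1 count in all of spNK and 8.57 to 16.2 TPM in tuNK, a ratio of summed CPM of 10545 (exact 95% interval 1892 to 416559). Xpot, the exportin of tRNA, rose by 1.51 ± 0.12 (SE; adjusted p = 1.12e-06). The hormone gene Fgf21, named after its value was seen, had 0 counts in spNK and 1.49 to 5.23 TPM in tuNK, at least 36.6-fold higher than a floor of 3 counts per library. Rab32 fell by 2.01 ± 0.17 on the log2 scale (SE; adjusted p = 2.01e-06) and Herpud1, a gene of protein quality control in the endoplasmic reticulum, fell by 0.55 ± 0.098 on the log2 scale (SE; adjusted p = 0.000481).

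Of 10 other genes of serine, glycine and folate metabolism 8 were tested, with 6 higher (35.6% of all tested genes), 0 lower (34.0%) and a median of 1.28. Scaled to leukocyte genes all 8 were higher (79.2% of all tested genes). Gcsh, a protein of the glycine cleavage system, rose by 2.36 ± 0.13 (SE; adjusted p = 1.08e-07) and Mthfd2l by 1.78 ± 0.24 (SE; adjusted p = 6.75e-05). Of 12 genes of proline, glutamate and aspartate metabolism 6 were higher (35.6% of all tested genes) and 3 lower (34.0%), with a median of 0.34. Scaled to leukocyte genes 11 were higher (79.2% of all tested genes) and 0 lower (5.55%). Got1, the cytosolic aspartate aminotransferase, rose by 1.73 ± 0.11 (SE; adjusted p = 2.44e-07). With TMM scaling the genes that fell were Glul, which makes glutamine (-0.86 ± 0.091, adjusted p = 1.09e-05), and the proline-degrading Prodh (-0.77 ± 0.23, adjusted p = 0.0111) and Aldh4a1 (-1.73 ± 0.19, adjusted p = 1.37e-05).

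Of 17 other amino acid transporter genes 15 were tested, with 4 higher (35.6% of all tested genes), 8 lower (34.0%) and a median of -0.25. This split turned to 9 higher (79.2% of all tested genes) and 3 lower (5.55%) when scaled to leukocyte genes. Those that rose were Slc25a13, a mitochondrial aspartate and glutamate carrier (2.42 ± 0.19, adjusted p = 1.21e-06), Slc7a6 (1.504 ± 0.15, adjusted p = 6e-06), Slc25a22 (0.81 ± 0.15, adjusted p = 0.000706) and the taurine transporter Slc6a6 (0.69 ± 0.093, adjusted p = 6.34e-05). Slc43a2, a carrier of large neutral amino acids, fell by 2.83 ± 0.23 on the log2 scale (SE; adjusted p = 1.43e-06). Its relative Slc43a1, named after its value was seen, averaged 0.0449 ± 0.0663 TPM in tuNK and 6.87 ± 4.17 TPM in spNK (SD, n = 4 each).

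Ratios of 2 genes within a library do not depend on how libraries are scaled to each other, and 9 are given here, compared by exact two-sided permutation of the group names (70 ways, with a smallest possible p of 0.0286). In 7 of them the groups did not overlap. How often other pairs of genes separate in this way was not determined. For single genes, TPM values did not overlap for 26.2% of all tested genes with tuNK above and 36.0% with tuNK below. The ratio of Atf5 to Atf4 in TPM was 1.27, 1.37, 1.41 and 1.64 in tuNK 1 to 4, against 0.154, 0.138, 0.137 and 0.1248 in spNK 1 to 4 (log2 difference 3.36, exact permutation p = 0.0286, adjusted p = 0.0357). Atf5 thus exceeded Atf4 in every tuNK library and in no spNK library. Mthfd2 over Mthfd1, the mitochondrial over the cytosolic folate enzyme, was 2.82, 2.85, 3.401 and 3.03 in tuNK 1 to 4, against 0.371, 0.325, 0.315 and 0.310 in spNK 1 to 4 (log2 difference 3.19, exact permutation p = 0.0286, adjusted p = 0.0357). By contrast Shmt2 over Shmt1 was 11.4, 14.0, 16.4 and 9.04 in tuNK 1 to 4, against 12.5, 20.2, 11.3 and 11.7 in spNK 1 to 4 (log2 difference -0.12, exact permutation p = 0.686, adjusted p = 0.743), and the 2 groups overlapped.

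Slc7a5 over Slc3a2, the light chain over its heavy chain, was 0.999, 0.965, 1.16 and 0.987 in tuNK 1 to 4, against 0.191, 0.166, 0.368 and 0.215 in spNK 1 to 4 (log2 difference 2.19, exact permutation p = 0.0286, adjusted p = 0.0357). The 2 RNAs were thus at nearly equal level in tuNK. Slc7a11 over Slc3a2 had a geometric mean of 0.0175 in tuNK and 0.000573 in spNK (log2 difference 4.94, exact permutation p = 0.0286, adjusted p = 0.0357). Slc38a2 over Slc38a1 was 21.5, 12.7, 19.6 and 12.3 in tuNK 1 to 4, against 2.77, 3.25, 2.53 and 3.12 in spNK 1 to 4 (log2 difference 2.46, exact permutation p = 0.0286, adjusted p = 0.0357). Slc1a5 over Slc1a4 had a geometric mean of 14.6 in tuNK and 220.4 in spNK (log2 difference -3.92, exact permutation p = 0.0286, adjusted p = 0.0357).

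Asns over Glul, the synthesis of asparagine over that of glutamine, was 5.93, 6.29, 9.58 and 5.96 in tuNK 1 to 4, against 0.215, 0.154, 0.514 and 0.290 in spNK 1 to 4 (log2 difference 4.68, exact permutation p = 0.0286, adjusted p = 0.0357). Asns lay above Glul in every tuNK library and below it in every spNK library. Wars over Yars was 1.01, 1.35, 1.00 and 1.17 in tuNK 1 to 4, against 1.04, 1.43, 0.999 and 1.19 in spNK 1 to 4 (log2 difference -0.036, exact permutation p = 0.743, adjusted p = 0.743) and overlapped between groups. This ratio depended on the measure: from counts in place of TPM the log2 difference was 0.33 (exact permutation p = 0.0571, adjusted p = 0.0635), also not called. Adjusted p-values are by Benjamini-Hochberg over the 10 ratios tested.

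**Figure D4:**
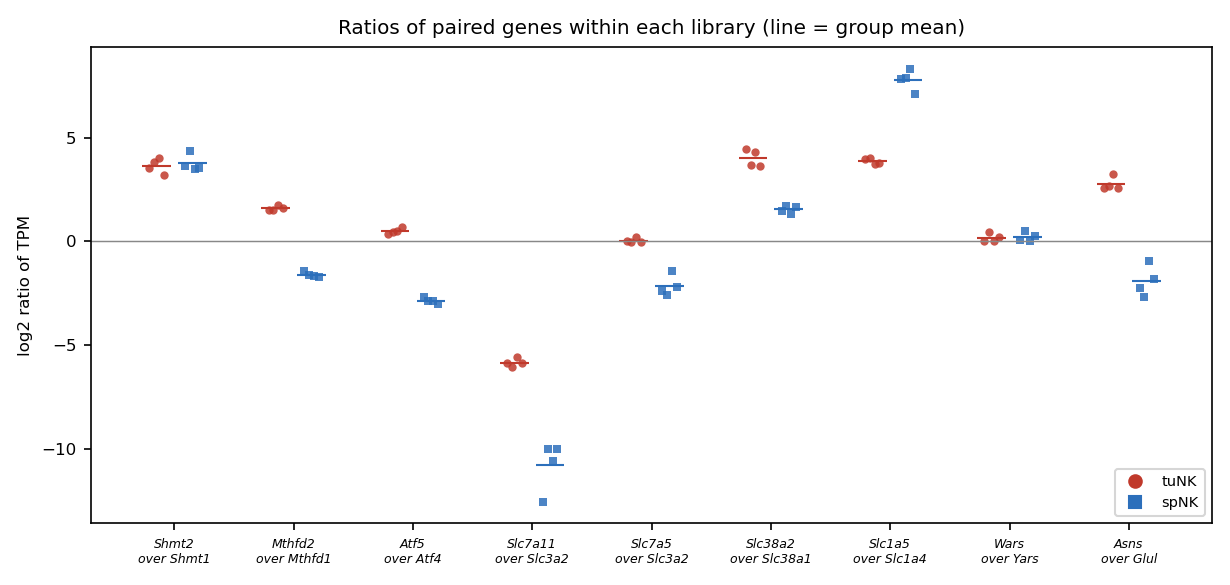
Log2 ratio of the TPM of 2 genes in each library for 9 pairs, with tuNK as red circles left of spNK as blue squares and lines at group means. The groups do not overlap except for Shmt2 over Shmt1 and Wars over Yars, and Slc1a5 over Slc1a4 is the ratio that is lower in tuNK without overlap.

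The order of levels among the 45 genes differed between the groups. In tuNK the highest mean levels were those of Phgdh (459 ± 75.4 TPM), Sars (439 ± 31.6 TPM), Atf5 (341 ± 43.1 TPM) and Psat1 (327 ± 41.8 TPM; SD, n = 4 each), and neither Phgdh and Sars nor Atf5 and Psat1 differed by more than their spread. In spNK Sars came first at 240.1 ± 17.0 TPM and Nars second at 81.0 ± 4.58 TPM, with Shmt2 (61.8 ± 11.4 TPM) and Slc1a5 (59.5 ± 5.35 TPM) next and within their spread of each other. As a share of the summed TPM of the 45 genes, Sars held 9.37 ± 0.758% in tuNK and 19.1 ± 2.29% in spNK, Phgdh 9.71 ± 0.408% in tuNK and 4.14 ± 0.653% in spNK, and Atf5 7.26 ± 0.659% in tuNK and 0.492 ± 0.0458% in spNK.

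The composite element letters and the size of change were set side by side as a description. The 13 genes with a match had a median log2 fold change of 4.68, from 0.30 (Yars) to 10.37 (Vldlr), and 8 of them were higher by at least 8-fold. The 22 tested genes with a promoter and no match had a median of 1.90, from 0.49 (Ddit3) to 6.32 (Gpt2), and 7 were higher by at least 8-fold. Phgdh, Psat1, Mthfd2 and Atf5 were among those without a match. Over all tested genes with a RefSeq promoter, counted here by gene identifier (a few identifiers share a symbol), the 275 with the letters had a median of -0.015 and 36.0% were called higher, and of the 9581 without them 36.7% were called higher. Among all genes the share called higher at any fold was thus close with and without the letters. Higher by at least 8-fold were 35 of the 275 with the letters and 920 of the 9581 without them.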

How the data were processed

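RNA of sorted NK cells was sequenced in 4 tuNK and 4 spNK libraries from 20 ng of RNA each, as pairs of 60 nt reads from a directional kit with poly(A) selection, per the labels' protocols. Reads were checked with FastQC 0.11.9, and STAR and Salmon were used with the build GRCm38, per the submitters' processing notes. Other versions, and whether strand was used in counting, are not stated. Expected counts (estimated, without normalisation) are in one deposited table, and 7.9 to 8.82% of a library's values in it were fractional. A second table deposited by the authors holds TPM, which are scaled by transcript length and sum to 1000000 per library. All 8 sample columns were used.

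Expected counts were rounded, filtered by group with filterByExpr (14006 genes kept), scaled with TMM and compared with the quasi-likelihood F test of edgeR 4.0.16 (R 4.3.3, robust) with Benjamini-Hochberg adjustment over all genes tested and a threshold of 0.05. Each log2 fold change is that of tuNK over spNK, with SE = |log2 fold change| / √F. Sequencing depth ran from 38745733 to 53886933 counts per library, and the coefficient of variation between libraries of a group was 0.266. Intervals on counts are exact, at the 95% level, and cover counting error only. Levels of markers are summed TPM, in place of the summed CPM first planned. Ratios of 2 genes were compared by exact permutation (scipy 1.17.1), and 1 of the 10 ratios tested, like some single genes and sequences, is not reported here. Positions are from GENCODE M21, which holds 45143 of the identifiers, and promoters from RefSeq. The edgeR and permutation steps were tested on simulated data with known changes. In the edgeR simulation few genes changed, as many up as down, so it does not cover scaling where most genes differ.

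The 45 genes, the role and pathway lists, the markers and the leukocyte genes were chosen with earlier results of these data known. Values per library are given for Atf4, Atf5, Ddit3, Trib3 and Chac1, for up to 6 genes of a role with the smallest adjusted p among those averaging at least 5 TPM in either group, and for genes whose call differs between TMM and leukocyte scaling; other lists give up to 3 genes of smallest adjusted p and those against the list's direction. Alternatives were DESeq2 1.42.0, limma 3.58.1 on counts (voom) and on log2 TPM, other scalings and filters, transcript length offsets, a threshold fold, a replicate block and leaving out libraries.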

Additional observations from a re-analysis of the deposited data

Results flagged for a closer look

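Libraries far from the other 3 of their group were looked for in 118 sets of 4 values, and 8 stood apart by Dixon's criterion at the 95% level, where chance alone flags about 1 set in 20. Cebpb was at 95.9 TPM in tuNK 1, against 35.6 to 45.5 TPM in the other tuNK libraries. Vldlr was at 28.7 TPM in tuNK 1, against 19.7 to 20.7 TPM in the others. Yars was at 61.2 TPM in tuNK 1, against 39.5 to 41.8 TPM in the others. The library tuNK 1 also had the highest sum of mesenchymal markers (1269 TPM, against 726 to 744 TPM in the other tuNK libraries), and the part of this in the 3 values was not tested. Slc6a9 was at 23.9 TPM in tuNK 3, against 11.4 to 12.2 TPM in the others. The log2 ratio of Asns over Glul was 3.26 in tuNK 3 and 2.57 to 2.65 in the others.

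In spNK, Chac1 was at 0.149 TPM in spNK 2 and at 0 in the others. Slc3a2 was at 51.3 TPM in spNK 1, against 56.1 to 57.0 TPM in the others. Lars was at 20.04 TPM in spNK 4, against 23.4 to 24.0 TPM in the others.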

How the results depend on the processing

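Over 22 alternatives, the number of the 45 genes called higher ran from 36 (a test against a fold of 1.5) to 43, against 42 as reported. It was 40 with library size scaling and with limma on log2 TPM at either offset. Scaled to leukocyte genes, 0 of them were lower, since Slc38a1 reversed to 0.51 (adjusted p = 0.0245), and the other pathway genes became 72 higher and 3 lower, against 45 and 20. Against a fold of 1.5, 10 of the 81 other pathway genes tested were lower, where 21.6% of all tested genes were. With each library left out in turn, 41 to 43 of the 45 genes were higher and 1 lower, and 41 to 48 of the other pathway genes were higher and 17 to 20 lower. Calls lost under some alternative were those of Ddit3, Cebpg, Ddit4, Mthfd1l, Wars and Yars, all against a fold of 1.5. Ddit3 was also lost with library size scaling, on log2 TPM, without tuNK 3 and without spNK 3 and tuNK 1 together (adjusted p from 0.0585 to 0.142 over these). For the genes with few spNK counts, the fitted fold changes depend on single libraries: without spNK 3 and tuNK 1 together Chac1 was at 9.11 and Slc6a9 at 6.06 on the log2 scale. Of the 10 ratios tested, 8 were called from TPM and 8 from counts. With a library left out, the exact test of a ratio cannot go below 0.0571, so it was not run. Libraries of the same number did not deviate together (r from -0.0081 to 0.042, under the 0.1 needed for pairing), although 6 libraries correlated best with their own number. With a replicate block, 42 of the 45 genes were higher and 1 lower, and 45 other pathway genes were higher and 19 lower. Depth limits Cth, Slc7a3 and the spNK levels of Trib3, Chac1, Vldlr and Nupr1.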

Other observations

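The libraries of a group were ranked by TPM for each of the 43 tested genes. In tuNK, tuNK 1 held the highest TPM for 26 of them and tuNK 3 for 15, and tuNK 4 held the lowest for 27. In spNK, spNK 3 held the highest TPM for 18. The library spNK 3 also had the highest sums of mesenchymal (14.8 TPM, against 3.93 to 8.58 TPM), epithelial tumour (5.03 TPM, against 1.13 to 1.80 TPM), macrophage, B cell, plasma cell and erythroid markers among the spNK libraries, and their part in its levels was not tested.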
